A study of Mus musculus with 5 samples.

Results

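C-type lectin receptors, TREM receptors and the short adaptor proteins that carry their signals were examined in mouse blood cells. The set was chosen by gene symbol and held 10 genes, 7 receptors (Clec4d, Clec4e, Clec5a, Clec7a, Clec12a, Trem1 and Trem3) and 3 adaptors (Tyrobp, Fcer1g and Hcst). All 10 were found as whole symbols in both kinds of table, among 34315 features in the granulocyte tables and 38166 in the tables of stem and progenitor cells. The study sequenced polyA-selected RNA of C57BL/6 mice, in 5 libraries. Gr1+ granulocytes of the bone marrow, taken at an age of 12 months, gave 2 libraries that the labels call technical replicates of 1 biological replicate; the mean of both counts as n = 1. KSL cells gave the other 3; these are c-Kit+, Sca-1+ and Lin- and include the blood stem cells. Sca-1+ cells of mice injected with 5-FU (5-fluorouracil, which kills dividing blood cells) were infected with a retrovirus, kept in culture for 2 days (stem cell factor at 10 ng/ml, thrombopoietin at 100 ng/ml) and sorted as c-Kit+Sca-1+Lin-GFP+ cells. One retrovirus was the knockdown control (Control-KD) and the others were directed at the long non-coding RNAs LncHSC-1 (LncHSC-1-KD) and LncHSC-2 (LncHSC-2-KD), with 1 library each. All 3 KSL groups therefore share the 5-FU injection, the infection and the culture. The age of these mice and how many were pooled per library were not given in the sources used here. No feature bears the name of either targeted RNA, so the knockdown itself was not analysed here.

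Receptors of this kind sit on granulocytes, monocytes and dendritic cells and sense microbes and dying cells. Most of them have almost no signalling tail of their own. They pair in the membrane with an adaptor: Fcer1g (the common Fc receptor gamma chain) and Tyrobp (DAP12) carry an immunoreceptor tyrosine-based activation motif, which recruits the kinase Syk, and Hcst (DAP10) carries a motif that recruits phosphoinositide 3-kinase. Clec7a (Dectin-1) signals through a motif in its own tail, and Clec12a carries an inhibitory motif that recruits phosphatases.

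Estimated depth was 37877189 and 46699220 reads for the granulocyte libraries and 19934925 to 24145600 reads for the KSL libraries. The sorted identities were checked against their markers. Ly6g, the antigen that defines neutrophils, was at 505 FPKM (fragments per kilobase, scaled for depth) in the granulocytes and at 0.677, 0.387 and 0 FPKM in the control, LncHSC-1 and LncHSC-2 libraries. Kit was at 67.6, 59.1 and 61.97 FPKM in those KSL libraries and at 5.64 in the granulocytes, and all 8 KSL markers on the list were at 5 FPKM or more in the control library. Granulocyte markers were not absent from it: S100a8 was at 42.5 and Csf3r at 25.5 FPKM there. Of the 12 granulocyte markers 4 reached 5 FPKM in the control library and all 12 in the granulocytes. In the Gr1+ sample 11 of 13 monocyte, macrophage and dendritic markers also reached 5 FPKM. The highest were Mpeg1 at 200, Csf1r at 57.8 and Cd68 at 36.5 FPKM. The part of such cells in the granulocyte values was not tested. No fold is given between the 2 experiments, because their divisor and their treatment of gene length differ. The granulocyte tables use the plain length of each gene. The KSL tables credit short genes with more FPKM per read: count units per FPKM differed between the tables by 1.97 times for the typical gene, but by 2.41 times for Fcer1g, 2.54 for Tyrobp and 2.86 for Hcst, the shortest of the set at 438 bases.

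All 10 genes were expressed strongly in granulocytes, and 2 of the 3 adaptors, Tyrobp and Fcer1g, were above every receptor of the set. At 5 FPKM or more stood 10 of the 10 genes, beside 6059 and 6069 of all 34315 features in the replicates. Tyrobp was at 1568 and 1583 FPKM in the technical replicates. Fcer1g was at 670.3 and 675 FPKM. Hcst, the other adaptor, was at 82.3 and 81.6 FPKM, below every receptor except Clec5a. These genes lie on chromosome 7 at 31198807 to 31202598 (Tyrobp, plus strand), chromosome 1 at 173159703 to 173164480 (Fcer1g, minus strand) and chromosome 7 at 31202731 to 31204873 (Hcst, minus strand) in mm9.

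Among the receptors, Clec4d (MCL, a partner of Mincle) was highest in granulocytes, at 218 and 221.5 FPKM. Trem3, an activating receptor that pairs with Tyrobp, was at 209 and 213 FPKM. Clec7a, the receptor for fungal beta-glucan, was at 165 and 168 FPKM. These were followed by the inhibitory receptor Clec12a, which stood at 139 FPKM in both replicates. Clec4e (Mincle, which binds mycobacterial glycolipid and signals through Fcer1g) was at 91.5 and 93.9 FPKM. Trem1, an amplifier of inflammation that signals through Tyrobp, was at 86.5 and 87.4 FPKM. Clec5a, which also signals through Tyrobp, was lowest at 75.1 and 77.3 FPKM. No pair of neighbours in this order overlapped between replicates, but technical replicates do not show the spread between mice. From the lowest to the highest receptor the means ran from 76.2 to 220 FPKM. The order of the whole set runs from Tyrobp and Fcer1g through Clec4d, Trem3, Clec7a, Clec12a, Clec4e, Trem1 and Hcst to Clec5a.

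**Figure D1:**
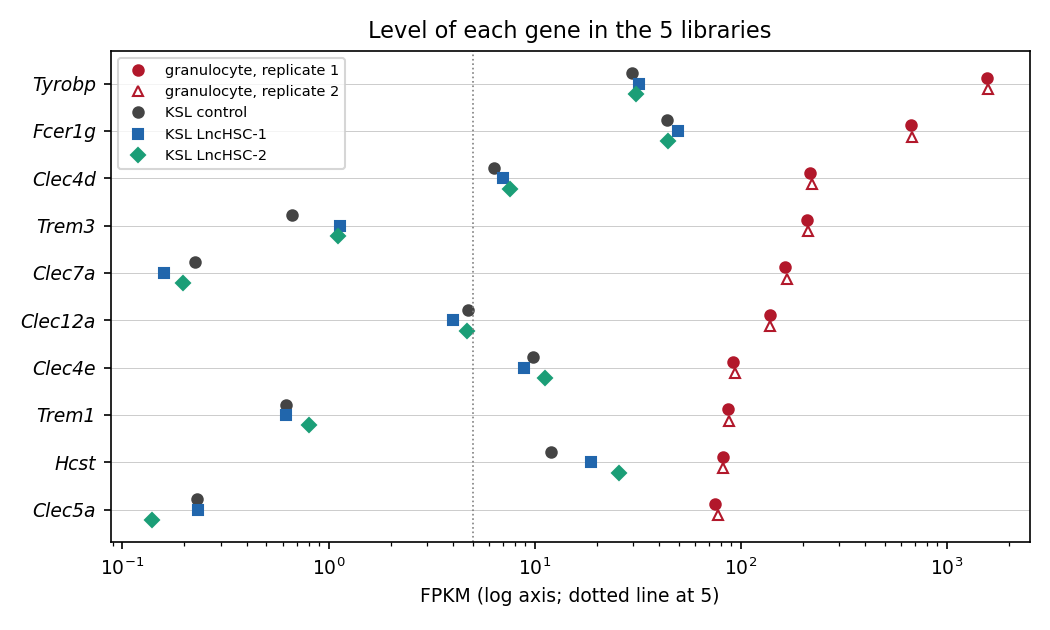
FPKM (log axis) of each gene in the 2 granulocyte libraries and the 3 KSL libraries; each point is 1 library and the dotted line marks 5 FPKM. All granulocyte points lie above 75 FPKM, while the KSL points run from 0.140 FPKM (Clec5a, LncHSC-2) to 49.7 FPKM (Fcer1g, LncHSC-1).

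Of the receptor genes 5 lie on chromosome 6 and 2 on chromosome 17. Clec4d and Clec4e are neighbours on chromosome 6, separated by 6520 bases and on opposite strands (123212125 to 123225286 and 123231807 to 123239889). Clec12a (129300262 to 129315321) and Clec7a (129411609 to 129422795) lie further along the same chromosome, and Clec5a (40524897 to 40535804) lies far before them. Trem1 (chromosome 17, 48371922 to 48386091) and Trem3 (48386944 to 48398207) are on the same strand with 852 bases between them. None of the 10 genes overlapped another feature of the tables. Neighbours did not share a level: Trem3 was above Trem1 in granulocytes, and Clec4d was above Clec4e in granulocytes but below it in every KSL library.

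RefSeq promoter sequences (GRCm38.p6) were found for 8 of the 10 genes; Trem3 and Tyrobp had no entry. The 250 bases before the start site were searched on both strands for GAGGAA, the core of the site bound by the myeloid factor PU.1, for AGGAAG, a wider ETS family site that overlaps it by 5 bases in GAGGAAG, and for TTGCNNAA, the site of C/EBP factors. These motifs were chosen after the sequences had been seen. Of the 8 promoters 6 held GAGGAA (all but Fcer1g and Hcst), against 23.1% of 27018 promoters of the same length. AGGAAG was in 6 (all but Clec4e and Clec7a), against 29.2%, and TTGCNNAA in 2, Clec12a and Clec4e, against 9.56%. The longer PU.1 form GAGGAAGT was in 0 of the 8, against 2.44%. A match describes letters only and shows no binding. The promoters of Clec12a and Clec4e are printed because they alone held the C/EBP letters, and that of Hcst because this gene alone of the set passed the 1.5-fold rule of size between KSL libraries; capitals mark any of the 3 shorter motifs on either strand (TTCCTC is GAGGAA read on the other strand). The windows are chr6:129349994-129350243, plus strand, then chr6:123289872-123290121, minus strand, then chr7:30419855-30420104, minus strand.
Clec12a: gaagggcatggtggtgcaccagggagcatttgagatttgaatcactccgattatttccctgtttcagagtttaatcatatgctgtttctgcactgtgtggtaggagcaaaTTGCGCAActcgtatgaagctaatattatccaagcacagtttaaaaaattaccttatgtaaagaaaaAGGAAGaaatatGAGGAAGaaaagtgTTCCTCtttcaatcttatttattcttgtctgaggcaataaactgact
Clec4e: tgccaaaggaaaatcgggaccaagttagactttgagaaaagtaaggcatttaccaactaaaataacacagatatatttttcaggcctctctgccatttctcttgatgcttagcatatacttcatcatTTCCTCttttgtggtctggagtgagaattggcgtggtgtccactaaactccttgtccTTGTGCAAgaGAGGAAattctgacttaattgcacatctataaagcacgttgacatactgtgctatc
Hcst: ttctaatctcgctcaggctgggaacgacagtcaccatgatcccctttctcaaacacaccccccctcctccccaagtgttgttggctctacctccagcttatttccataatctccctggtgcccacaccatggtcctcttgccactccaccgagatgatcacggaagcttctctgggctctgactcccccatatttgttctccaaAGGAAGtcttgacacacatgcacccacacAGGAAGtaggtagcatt
In Clec12a the C/EBP letters begin 140 bases before the start and 2 GAGGAA matches begin at 61 and 47 bases. In Clec4e the C/EBP letters begin at 66 bases, next to a GAGGAA match at 56. In Hcst the matches are 2 AGGAAG words that begin at 46 and 17 bases.

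In KSL cells the adaptors were present and most of the receptors were low. In the control library 5 of the 10 genes reached 5 FPKM, namely the 3 adaptors with Clec4e and Clec4d, beside 9108 of all 38166 features. Fcer1g was at 43.9, 49.7 and 44.5 FPKM in the control, LncHSC-1 and LncHSC-2 libraries. Tyrobp was at 29.6, 32.2 and 31.2 FPKM. Fcer1g was thus above Tyrobp in each KSL library, the reverse of their order in granulocytes. This reversal also held in counts per plain kilobase, where Fcer1g was at 910 and Tyrobp at 582 in the control library and at 33630 and 78789 in the granulocytes on their own scale.

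Of the receptors, Clec4e was at 9.82, 8.90 and 11.2 FPKM in the control, LncHSC-1 and LncHSC-2 libraries. Clec4d was at 6.39, 7.06 and 7.62 FPKM. Clec12a stood just under the floor of 5 FPKM, at 4.73, 4.02 and 4.72. Each of these was seen in 190 or more reads per library. The remaining 4 receptors were scarce, with 10 to 55 reads per library. Trem3 was at 0.664, 1.14 and 1.11 FPKM on 14, 28 and 22 reads. Trem1 was at 0.624, 0.619 and 0.807 FPKM on 45, 52 and 55 reads. Clec5a was at 0.229, 0.234 and 0.140 FPKM on 21, 25 and 12 reads, and Clec7a at 0.224, 0.160 and 0.197 FPKM on 12, 10 and 10 reads. Trem3 and Trem1 could not be ordered in any KSL library, since their exact Poisson 95% intervals overlapped, and neither could Clec5a and Clec7a. Hcst and Clec4e could not be ordered in the control library, where Hcst was above Clec4e by FPKM and below it by counts per plain kilobase (209 against 251). In the LncHSC-2 library Tyrobp and Hcst could not be ordered either. In bulk RNA, fewer cells of a type and less RNA per cell cannot be told apart.

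The place of each gene within its own library does not depend on the FPKM divisor, though it does depend on the length term. Over the 34309 symbols that both kinds of table hold, all 10 genes ranked higher in granulocytes than in control KSL cells. The share of all symbols that did so was not counted. The direction alone was common among listed genes, also among those low in granulocytes. It held for 14 of 15 other C-type lectins and 10 of 12 natural killer and T cell markers. It held for 1 of 8 B cell markers and 0 of 8 KSL markers. Clec7a was at percentile 99.3 in granulocytes and 56.9 in control KSL cells, and Clec5a at 98.1 and 57.1. Trem3 (99.4 and 62.2) and Trem1 (98.5 and 61.9) stood similarly far apart. Clec12a (99.1 and 73.1), Clec4d (99.5 and 75.4) and Clec4e (98.6 and 79.4) were closer. The adaptors were closest by FPKM, with Hcst at 98.3 and 81.3, Tyrobp at 99.95 and 90.9 and Fcer1g at 99.9 and 94.0. Many of these symbols are at 0 in 1 or both tables, which raises the lower percentiles. Over the 13472 symbols at 1 FPKM or more in either experiment, Clec7a was at percentile 5.09 and Fcer1g at 84.8 in the control library. With the same plain length in both tables (19702 symbols), granulocyte minus control percentiles ran from 11.8 (Fcer1g) to 69.3 (Clec7a), and all 10 were again higher in granulocytes. On that scale Hcst, at 34.7, lay further apart than the receptor Clec4e, at 32.0, so that only Fcer1g and Tyrobp (19.1) remained closer than every receptor. With 1 biological sample on each side no test of this difference was possible.

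**Figure D2:**
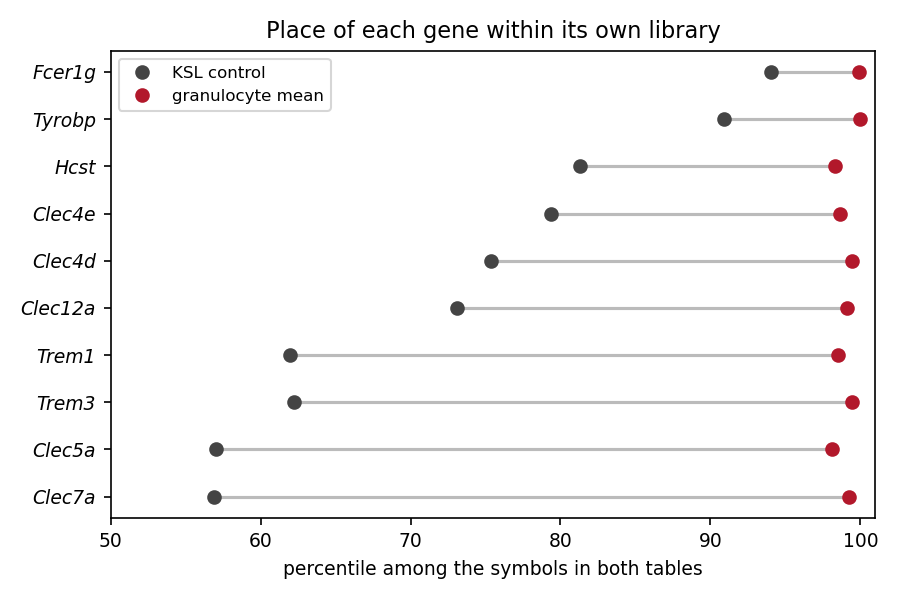
Percentile of each gene among the 34309 symbols in both kinds of table, in the control KSL library (grey) and for the granulocyte mean (red); 1 point per gene and the axis starts at 50. Red points lie between 98.1 and 99.95, and the grey points run from 56.9 (Clec7a) to 94.0 (Fcer1g).

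The 2 knockdowns ask which transcripts follow the loss of either long non-coding RNA. Since each group has 1 library, conditions could not be tested and no p-value is given. Differences are log2 ratios of FPKM + 1, which understate the change of low genes, with a rule of size of 1.5-fold or 2-fold for the 9153 features at a mean of 5 FPKM or more over the KSL libraries. Of the 10 genes 5 passed that floor (Fcer1g, Tyrobp, Hcst, Clec4e and Clec4d), and 5 did not. Beside each ratio stands an exact binomial 95% interval of the ratio of estimated reads, without a pseudocount, which covers counting error only.

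Of the 5 genes above the floor, Hcst differed most from control. It was at 12.0 FPKM in the control library on 85 reads, at 18.8 in the LncHSC-1 library on 156 reads and at 25.6 in the LncHSC-2 library on 170 reads. The control library was lowest and the LncHSC-2 library highest. The Poisson interval of the control value, 9.55 to 14.8 FPKM, did not overlap those of the LncHSC-1 (15.98 to 22.0) and LncHSC-2 (21.9 to 29.7) values, which overlapped each other. Against control the log2 ratio was 0.61 for LncHSC-1 (interval 0.26 to 1.05) and 1.03 for LncHSC-2 (0.70 to 1.47). Both ratios use the same single control library. Hcst was the only 1 of the 5 members above the floor past 1.5-fold in the LncHSC-1 library, where 2.23% of all 9153 features were past it in either direction, and it was not past 2-fold there (background 1.06%). In the LncHSC-2 library it was again the only 1 past 1.5-fold (background 1.77%) and was also past 2-fold (background 0.951%). The 2-fold call ended with a pseudocount of 5 FPKM (0.85) and in the count column as deposited (0.93), and the 1.5-fold call in the LncHSC-1 library ended with a pseudocount of 5 FPKM (0.49). Set directly against each other, without the control library, LncHSC-1 was below LncHSC-2 by a log2 ratio of -0.42 (-0.75 to -0.10), which did not pass 1.5-fold. In that comparison 0 of the 5 members passed 1.5-fold (background 2.31%) or 2-fold (background 1.15%).

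Beside Hcst stand its genome neighbours and the markers of cells that use it. Tyrobp ends 132 bases from the end of Hcst on the opposite strand, so the transcripts run towards each other; the sources used here do not say whether the counting used strand. The log2 ratio of Tyrobp to control was 0.12 (-0.10 to 0.35) for LncHSC-1 and 0.07 (-0.17 to 0.30) for LncHSC-2, within counting error of 0. Nfkbid, the next gene on the other side at 3449 bases, was at 7.62, 7.09 and 7.39 FPKM in the control, LncHSC-1 and LncHSC-2 libraries. Hcst serves the receptor NKG2D, encoded by Klrk1, on natural killer and T cells. Klrk1 was seen in 7, 22 and 7 reads in the control, LncHSC-1 and LncHSC-2 libraries, and the natural killer receptor gene Ncr1 in 2, 0 and 2 reads. Klrd1, which encodes the natural killer receptor CD94, was seen in 3, 16 and 8 reads, fewest in control as for Hcst, with intervals of the log2 read ratio to control from 0.39 to 4.61 for LncHSC-1 and from -0.56 to 4.05 for LncHSC-2. The summed level of the 12 natural killer and T cell markers was 62.96, 64.8 and 58.4 FPKM, of which Nkg7 alone gave 56.0, 55.2 and 51.8. That list had 0, 4 and 4 genes with no read. Counted without the floor, 6 of its 12 genes were above control and 6 below it in each knockdown library. Prf1, at 4, 0 and 0 reads, and Gzma, at 2, 0 and 0 reads, went opposite to Klrd1, with intervals that held 0. Gzmb, which was above the floor, was seen in 182, 287 and 158 reads. Its log2 ratio to control was 0.38 (0.16 to 0.71) for LncHSC-1 and -0.10 (-0.44 to 0.19) for LncHSC-2. For LncHSC-1 the intervals of 3 of the 12 genes excluded 0, namely Klrk1 (0.15 to 2.90), Klrd1 and Gzmb, all above control. For LncHSC-2 the interval of 0 of the 12 did. The 12 granulocyte markers summed to 129, 122 and 118 FPKM. Most of that came from S100a8, S100a9 and Csf3r, at 42.5, 36.6 and 25.5 FPKM in control. By gene and with no floor, 7 of the 12 were above control and 5 below it for LncHSC-1. For LncHSC-2, 3 were above control and 9 below it. The 8 megakaryocyte and platelet markers summed to 578, 741 and 715 FPKM, higher in both knockdown libraries. The 13 monocyte, macrophage and dendritic markers summed to 133, 200.2 and 136 FPKM, higher for LncHSC-1 and close to control for LncHSC-2. The largest parts were MHC class II genes: H2-Aa was at 27.4 FPKM in control and 51.3 in LncHSC-1, H2-Ab1 at 41.9 and 59.3, and H2-Eb1 at 16.3 and 27.7. Mpeg1 was at 17.7 and 24.3 FPKM. Ly86 was at 6.42 and 10.8 FPKM (log2 ratio 0.67, interval 0.44 to 1.06). Csf1r (2.24 and 2.31 FPKM) and Emr1 (2.79 and 2.82) were near control, and Cx3cr1 (0.487 and 0.398) was not higher. With no floor, 12 of these 13 markers were above control for LncHSC-1 and 1 was below it, and 7 intervals excluded 0. For LncHSC-2, 5 were above control and 8 below it, and 2 intervals excluded 0. The part of any of these cells in the Hcst values was not tested.

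**Figure D3:**
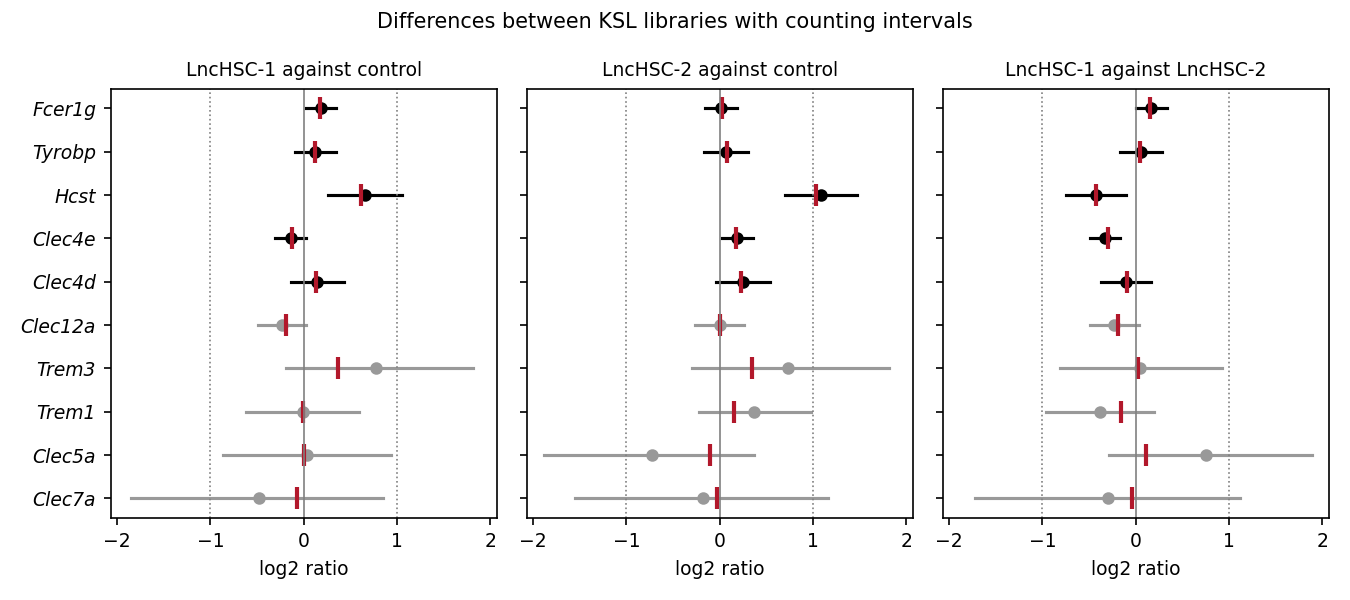
Log2 ratios of the 10 genes in the 3 comparisons of KSL libraries. Dots and bars are ratios of estimated reads with exact binomial 95% intervals (black for genes above the floor of 5 FPKM, grey below it), red ticks are ratios of FPKM + 1, and dotted lines mark 2-fold; Hcst is the only gene whose red tick is past 1.5-fold.

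The other adaptors and receptors lay close to control. The log2 ratio of Fcer1g to control was 0.18 (0.02 to 0.34) for LncHSC-1 and 0.02 (-0.16 to 0.19) for LncHSC-2. That of Clec4e was -0.13 (-0.31 to 0.02) and 0.17 (0.02 to 0.35), and the LncHSC-1 library was below the LncHSC-2 library by -0.30 (-0.49 to -0.17). That of Clec4d was 0.13 (-0.13 to 0.43) and 0.22 (-0.04 to 0.54). Counting intervals without 0 were seen for 2 of the 5 members above the floor in the LncHSC-1 library (Fcer1g and Hcst), where 39.7% of all features had one. In the LncHSC-2 library they were seen for 2 (Clec4e and Hcst), against 25.5%, and between the knockdown libraries for 3 (Clec4e, Fcer1g and Hcst), against 35.8%. Such intervals are thus common in these libraries and do not measure the spread between cultures.

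Below the floor, no interval excluded 0. The ratio of Clec12a to control was -0.19 (-0.49 to 0.03) for LncHSC-1 and -0.00 (-0.27 to 0.26) for LncHSC-2. That of Trem3 was 0.36 and 0.34 by FPKM + 1, and by estimated reads 0.78 (-0.20 to 1.82) and 0.73 (-0.30 to 1.81). The read ratio for LncHSC-1 was thus above that of Hcst (0.65), on 14 control reads and with an interval that held 0. Trem1, Clec5a and Clec7a lay between -0.11 and 0.15 by FPKM + 1 in both comparisons with control. Of these the intervals of Trem1 were -0.62 to 0.60 and -0.22 to 0.97, and those of Clec7a, the widest, were -1.85 to 0.85 and -1.55 to 1.16, so that a difference within these bounds was not detectable at this depth. The median log2 ratio over all 10 genes was 0.06 for LncHSC-1 and 0.11 for LncHSC-2, with 6 and 7 genes higher. Above the floor 4 and 5 of the 5 members were higher, beside 4010 and 4767 of all 9153 features, whose medians were -0.02 and 0.00.

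The related receptors followed the same contrast between cell types. Of 15 other C-type lectins 6 reached 5 FPKM in granulocytes and 1 in control KSL cells. Clec4a2, an inhibitory receptor of the Dectin-2 cluster, was at 74.4 FPKM in granulocytes and 0.469 in control KSL cells. Clec2d, a ligand of natural killer receptors, was the exception, at 40.2 and 31.96 FPKM. Clec4a3 (9.05 and 3.21 FPKM) and Clec10a (1.67 and 2.65 FPKM) were low in both. Of 11 other TREM, CD300 and PILR family genes 9 reached 5 FPKM in granulocytes and 1 in control KSL cells. Cd300lf was at 212, Cd300lb at 187 and Pilra at 142 FPKM in granulocytes, and each was under 1 FPKM in the control library. Cd300a, an inhibitory member, was at 48.3 FPKM in granulocytes and 4.51 in control KSL cells. Treml2 was again present in both, at 60.4 FPKM in granulocytes and 66.9 in control KSL cells, while the platelet receptor Treml1 was at 3.21 FPKM in control KSL cells and 0.0412 in granulocytes.

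Of 13 other receptors that use these adaptors 5 reached 5 FPKM in granulocytes and 0 in control KSL cells. The Fc receptor Fcgr3, which needs Fcer1g to reach the surface, was at 368 FPKM in granulocytes and 2.38 in control KSL cells. Fcgr4 was at 83.6 and 1.49 FPKM. Csf1r, whose signal involves Tyrobp in macrophages, was at 57.8 and 2.24 FPKM, and Siglech, a Tyrobp partner of plasmacytoid dendritic cells, at 0.251 and 2.22. The KSL cells thus held Fcer1g and Tyrobp transcripts with few transcripts of the listed partners. Of 5 features listed for ligands 3 reached 5 FPKM in both cell types, namely Pglyrp1, Hmgb1 and Sap130. Pglyrp1, a granule protein that binds Trem1, was at 1360 FPKM in granulocytes. In KSL cells Pglyrp1 was at 16.6, 22.7 and 24.1 FPKM in the control, LncHSC-1 and LncHSC-2 libraries, lowest in control (log2 ratios 0.43, 0.21 to 0.70, and 0.51, 0.28 to 0.79) and within 1.5-fold of it. The ligand Hmgb1 was at 85.1 FPKM in control KSL cells and 8.05 in granulocytes. Sap130, at 17.2 and 10.2 FPKM, was listed by its symbol, but the Mincle ligand of that name is encoded by another gene.

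**Figure D4:**
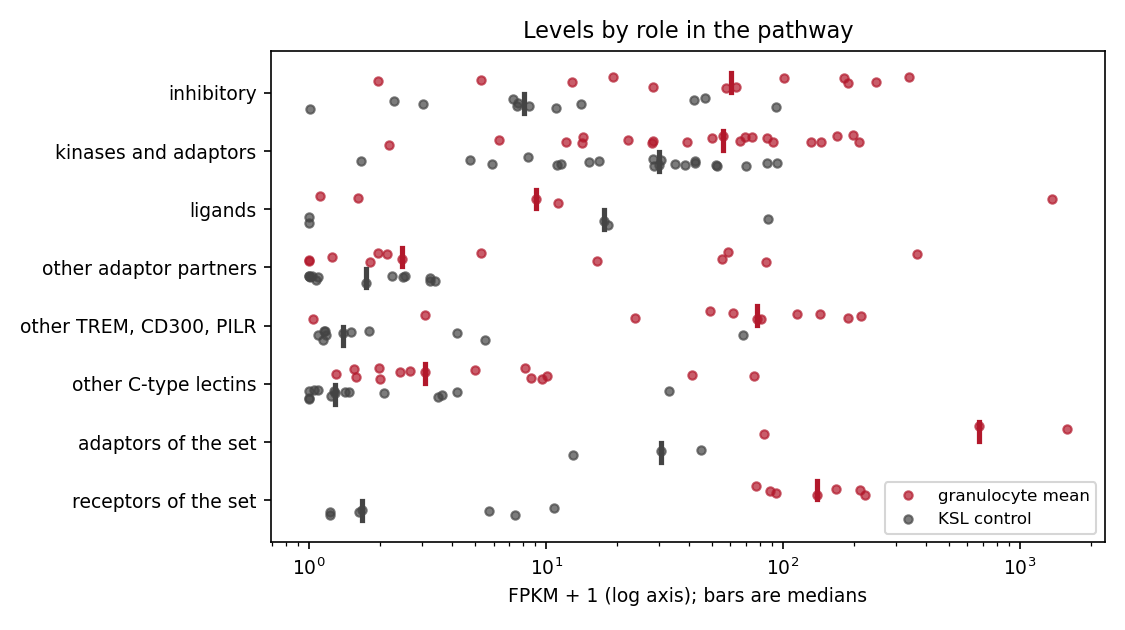
FPKM + 1 (log axis) of the genes in each role, for the granulocyte mean (red) and the control KSL library (grey); each point is 1 gene and bars are medians. The receptor median was 139 FPKM in granulocytes and 0.664 in control KSL cells, whereas that of the kinases and adaptors downstream was 54.9 and 28.8 FPKM.

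Downstream of the receptors, the machinery was present in both cell types. Of 21 kinases and adaptors 20 reached 5 FPKM in granulocytes and 18 in control KSL cells. Syk, the kinase that docks on the activation motif, was at 143 FPKM in granulocytes and 41.7 in control KSL cells. The Src family kinase Fgr was at 209 FPKM in granulocytes and 0.657 in control KSL cells. Card9, which carries the signal of Clec7a and Clec4e to NF-kappaB, was at 68.0 and 4.93 FPKM, and the protein kinase C gene Prkcd at 196 and 29.6. Btk (38.3 and 68.5), Plcg2 (84.7 and 84.3) and Grb2 (89.3 and 93.6) were abundant in both. Among 12 inhibitory genes 10 reached 5 FPKM in granulocytes and 9 in control KSL cells. The receptor Cd33 was at 341 and 2.02 FPKM, and the phosphatase gene Ptpn6 at 247 and 92.2. The adaptor Dok3 was at 186 and 6.58 FPKM, and the lipid phosphatase gene Inpp5d (SHIP1) at 62.4 and 45.9.

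Past 1.5-fold were 2.23% of all 9153 features for LncHSC-1 and 1.77% for LncHSC-2. Of the 19 kinases and adaptors above the floor 0 passed it in either knockdown library. Pik3ap1, a link from receptors to phosphoinositide 3-kinase, lay furthest out, at 0.41 (0.30 to 0.58) for LncHSC-1 and 0.04 for LncHSC-2. The transmembrane adaptor gene Lat2 was at -0.08 and 0.20, and Malt1, a partner of Bcl10 below Card9, at -0.16 and -0.04. Beside those 2.23% and 1.77% of all features, 1 of 9 inhibitory genes above the floor passed 1.5-fold for LncHSC-1 and 0 for LncHSC-2. It was the inhibitory Fc receptor Fcgr2b, at 6.24, 11.04 and 7.15 FPKM in the control, LncHSC-1 and LncHSC-2 libraries (0.73, 0.57 to 1.06, in LncHSC-1). Fcgr2b resembles Fcgr3 in sequence, and the sources used here do not say how shared reads were counted. B cells and dendritic cells also express Fcgr2b. The 8 B cell markers summed to 47.8, 80.1 and 49.1 FPKM, with all 4 of those above the floor higher in LncHSC-1 than in control. Of the monocyte, macrophage and dendritic markers, 6 of the 6 above the floor were higher, against 4010 of all 9153 features. That list is mixed and does not single out dendritic cells. Below the floor, Itgax was seen in 25 control and 31 LncHSC-1 reads (interval -0.72 to 0.91). Siglech was seen in 126 and 198 (0.10 to 0.76). The part of these cells in the Fcgr2b and Pik3ap1 values was not tested.

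The named genes nearest to each adaptor over the 4 groups were found by the smallest value of the largest difference in log2(FPKM + 1), among 18945 named genes. Nearest to Tyrobp was Anxa1 (0.78), followed by Pglyrp1 (0.80) and Sepx1 (0.94). Nearest to Fcer1g were the actin-binding genes Cnn2 (0.46) and Lsp1 (0.47), followed by Gsr (0.63), which encodes glutathione reductase. Nearest to Hcst were Arhgap25 (0.49), Chst12 (0.52) and Rinl (0.53). The values are differences over 4 points of 2 experiments and carry no test.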

How the data were processed

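RNA sequencing covered 2 technical replicates of 1 granulocyte sample and 3 KSL libraries, 1 per group. The submitters' processing notes name mm9 and DESeq; the aligner, counter and annotation release were not given in the sources used here. Each table holds a count column and an FPKM value per feature, per the file headers. The granulocyte count columns as deposited by the authors were treated as a score, reads multiplied by a library factor and rounded. Those of the KSL tables, also deposited by the authors, are a signal in which each read is worth a fixed amount: 91.7% to 92.1% of the values up to 20 reads lay within 0.1 read of a multiple of the most frequent value above 0. That value was 1.08 (control), 0.924 (LncHSC-1) and 1.03 (LncHSC-2), and dividing by it gave the estimated reads. Granulocyte factors, 1.07 and 0.865, were those whose rounding pattern best matched the low scores. FPKM as deposited by the authors was the main measure, with a floor of 5 FPKM and a pseudocount of 1. Binomial 95% intervals of read ratios took relative depth from reads per FPKM. They cover counting error only, and the code was tested on simulated data. PCR reads without molecular identifiers are not independent molecules. The members and gene lists were chosen with earlier results of these data known. The rule for named genes takes the 10 members, and of each other list up to 3 genes highest in granulocytes, highest in control KSL cells and furthest apart between KSL libraries. Marker lists are given mainly as sums. A few genes of these lists are left out of the text. Markers of sorted identity, the neighbours of Hcst and the 3 genes nearest to each adaptor are named too. Listed genes named for another reason were chosen after their values were seen: Card9, Syk, Klrk1, Klrd1, Ncr1, Prf1 and Gzma. So were Emr1, Cx3cr1, Itgax and most of those of the closing observations. Ulbp1 was not found by symbol, Adgre1 was found under its older symbol, and Raet1d and Raet1e share 1 feature. Python 3.11.15, numpy 2.4.6, pandas 2.3.3, scipy 1.17.1 and matplotlib 3.10.9 were used.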

Additional observations from a re-analysis of the deposited data

How the results depend on the processing

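All 10 members were at 5 FPKM or more in granulocytes from either replicate alone (10 to 10 when each replicate is left out). All 10 also passed with a threshold of 1 FPKM and after rescaling both tables to the same sum. They all ranked above their place in control KSL cells under each of the 4 alternatives, a direction that many other listed genes shared in the main setting. Of these alternatives 1 (1 gene length in both tables) was chosen after seeing the data. The count of members in control KSL cells was 5, and 6 with a threshold of 1 FPKM or after rescaling. The count of members past 1.5-fold for LncHSC-1 was 1, and 0 with a pseudocount of 5 FPKM, which by construction shrinks low genes; under the other 5 alternatives the count was 1, and for LncHSC-2 it was 1 under all 6. The ratio of Hcst ran from 0.49 to 0.67 for LncHSC-1 and from 0.85 to 1.09 for LncHSC-2. The median of the members above the floor between both knockdown libraries, -0.10, changed sign in the count column as deposited (0.04), where the median of all features also moved, to 0.12 there and to -0.14 for LncHSC-2 against control. Of 150 recomputed ratios of single members none moved by more than its counting error. All of them reuse the same reads, so this was largely built in and does not measure stability. For scarce genes the bound is wide: Clec5a for LncHSC-2 went from -0.11 to -0.82 in the count column as deposited and stayed within it. Depth limits Clec7a (10 to 12 reads), Clec5a (12 to 25) and Trem3 (14 to 28). No paired analysis was possible because each KSL group has 1 library and the granulocyte replicates are technical.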

Other observations

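Some listed genes below the floor of 5 FPKM stood out in KSL cells, and they were chosen after their values were seen. Clec4a3, a lectin of the Dectin-2 cluster, was seen in 87 control reads, 72 LncHSC-1 reads and 46 LncHSC-2 reads. That is a log2 ratio of FPKM + 1 of -0.43 and -0.65, with intervals of the reads from -0.97 to -0.03 and from -1.39 to -0.31. Cd300lb, an activating receptor that pairs with Tyrobp, went the other way, with 35, 58 and 80 reads (0.19 and 0.56, intervals -0.12 to 1.16 and 0.68 to 1.89). Both comparisons use the same control library.

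The mast cell receptor chains that assemble with Fcer1g were scarce and lowest in the LncHSC-2 library. Fcer1a was seen in 27, 41 and 8 reads and Ms4a2 in 16, 25 and 5 reads in the control, LncHSC-1 and LncHSC-2 libraries. Tpsb2, a mast cell tryptase, was seen in 42, 99 and 22 reads, and the mast cell protease gene Mcpt4 in 11, 33 and 5. Other genes of the mast cell and basophil list did not share this order: Prss34, a basophil protease, was seen in 40, 22 and 77 reads, highest in the LncHSC-2 library (interval of the log2 read ratio to control 0.46 to 1.62), Cma1 in 23, 56 and 23 reads, and Mcpt8 in 104, 106 and 91 reads. Cpa3, another mast cell protease that early progenitors also express, was at 7.18, 6.55 and 6.21 FPKM. Fcer1g itself was at 43.9, 49.7 and 44.5 FPKM, so its level in the LncHSC-2 library was not below control while those of Fcer1a and Ms4a2 were.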
